A study of Mus musculus with 9 samples.

Results

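The transcription factors and markers of the trophoblast described here are 7 mouse genes: Tfap2a, Tfap2c, Esx1, Plac8, Hand1, Eomes and Ascl2. They were found as every probe set whose single platform gene symbol, after updating, was one of these names, and all 7 were present, with 10 of the 12422 probe sets compared. Tfap2a, Hand1 and Eomes had 2 probe sets each, and the other 4 genes had 1. RNA came from F9 cells, an established mouse embryonal carcinoma line that resembles the undifferentiated embryo and can be driven toward endoderm by retinoic acid. All 3 groups of 3 arrays were unmodified F9 cells exposed for 24 h: vehicle cells received ethanol in their medium, RA cells retinoic acid at 0.5 µM, and TSA cells trichostatin A, an inhibitor of histone deacetylases, at 0.07 µM. Whether the replicates came from separate cultures is not stated in the labels, so p-values here reflect only how far these arrays scattered, which may be technical.

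The trophoblast is the lineage that leaves the embryo at the blastocyst stage and builds the fetal part of the placenta. Tfap2c (AP-2 gamma) and Eomes, a T-box factor, act in its stem cells. The basic helix-loop-helix factors Ascl2 and Hand1 act in the spongiotrophoblast precursors and giant cells, and the X-linked homeobox factor Esx1 in the labyrinth. Tfap2a (AP-2 alpha) is the close relative of Tfap2c and is also a regulator of neural crest and surface ectoderm. Plac8 encodes a small cysteine-rich protein, named for its placental transcripts and also made by other cell types. An older name of Tfap2c, Stra2, comes from its isolation as a gene stimulated by retinoic acid in another embryonal carcinoma line.

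Promoter sequences were available from RefSeq (GRCm38.p6) for 5 of the 7 genes, as 7 start sites, and not for Tfap2c and Hand1. The upstream 250 bases of the 3 start sites of Esx1 and Plac8 are shown because both genes rose in TSA. Tfap2c rose too, but no window of it could be shown or searched. Sequences run 5′ to 3′ on the gene's strand up to the base before the start, and capitals mark the E-box CANNTG, the core bound by basic helix-loop-helix factors. Esx1 at chrX:137120327-137120576 (minus strand) held 1 E-box, Plac8 at chr5:100572206-100572455 (minus strand) none, and Plac8 at chr5:100563097-100563346 (minus strand) 2.
Esx1: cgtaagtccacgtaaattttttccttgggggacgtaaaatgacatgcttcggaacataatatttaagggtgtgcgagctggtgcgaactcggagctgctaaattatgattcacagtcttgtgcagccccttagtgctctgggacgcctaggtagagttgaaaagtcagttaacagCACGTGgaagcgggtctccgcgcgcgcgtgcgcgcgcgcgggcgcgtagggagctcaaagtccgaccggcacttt
Plac8 first start: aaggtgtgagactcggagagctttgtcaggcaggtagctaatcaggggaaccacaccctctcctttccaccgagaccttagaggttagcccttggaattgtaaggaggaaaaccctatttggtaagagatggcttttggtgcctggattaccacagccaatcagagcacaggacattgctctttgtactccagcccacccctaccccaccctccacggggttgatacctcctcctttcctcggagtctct
Plac8 second start: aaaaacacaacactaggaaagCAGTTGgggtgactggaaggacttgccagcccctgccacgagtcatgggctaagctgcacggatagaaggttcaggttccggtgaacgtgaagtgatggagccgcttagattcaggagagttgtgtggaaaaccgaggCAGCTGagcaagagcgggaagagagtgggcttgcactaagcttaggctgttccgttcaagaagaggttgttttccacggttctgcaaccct

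Both strands of the 7 upstream windows of the 5 genes were searched for 5 short motifs. The E-box was found in 3 of 7 windows, against 66.2% of 32817 windows of the same length over all genes, and the GC box GGGCGG in 3 of 7, against 32.7%; those with a GC box were the 2 of Tfap2a and that of Ascl2. The AP-2 motif GCCNNNGGC, the TATA box TATAAA and the hexamer AGGTCA bound by retinoic acid receptors were in none of the 7, against 13.7%, 12.4% and 14% of all windows. Only these exact letters were counted, so variant forms of a motif were not found. The Eomes window, for example, holds tatataa, which is not a match to TATAAA. Esx1 had 24 CpG dinucleotides in its window and Ascl2 19, and the windows of Plac8 had 4 and 9, where the median of all windows was 6. Which start site the array's transcripts used is not given, and these matches are letters in a window, not measured binding.

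The deposited values are linear ratios of each probe set to its own mean on the 3 vehicle arrays, so vehicle averages 1 by construction. A ratio says nothing of how bright a probe set was, and levels of different genes were not compared. Changes are log2 differences after adding 0.05 to each ratio, fitted with limma over all 9 arrays, and a probe set was called changed at a Benjamini-Hochberg adjusted p under 0.05 over all 12422. The median probe set changed by -0.12 in RA and -0.17 in TSA against vehicle on this scale. In the median ratio of 3 control probe sets for 18S rRNA, vehicle replicate 3 (2.4), RA replicate 3 (0.961) and vehicle replicate 1 (0.538) stood above the other 6 arrays, which lay from 0.0336 to 0.073. Of 10 marker genes of undifferentiated cells, 3 fell in RA and 4 in TSA and none rose. That is 3 and 4 of 14 probe sets, where 1.36% and 3.48% of all were called changed in either direction. Pou5f1, Nanog and Sox2 were called in neither treatment, though all their estimates lay below 0. On its probe sets Pou5f1 changed by -0.84 and -0.99 in RA and by -0.99 and -1.05 in TSA. Nanog changed by -0.61 and -0.7 in RA and by -0.41 and -0.37 in TSA. Sox2 changed by -0.64 in RA and -0.06 in TSA. Gdf3 and Klf4 fell in TSA on 1 probe set each, and the other of each did not pass. Ratios cannot show how strongly the vehicle cells expressed these markers.

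In TSA, 3 of the 10 probe sets rose, those of Tfap2c, Esx1 and Plac8, and none fell, where 3.48% of all probe sets were called changed and 2.21% called higher. In RA none of the 10 was called by limma, against 1.36% of all probe sets; at an unadjusted p under 0.05 there was 1, a Tfap2a probe set, against 12.7% of all. Comparing the treatments directly, the same 3 genes were lower in RA than in TSA, 3 of 10 probe sets, where 3.91% of all differed and 2.21% were lower. The TSA and vehicle arrays did not overlap in 6 of the 10 (4 higher, 2 lower), against 26.3% of all probe sets (9.26% higher, 17.1% lower), and the RA and TSA arrays did not overlap in 6 of the 10, against 27.3%. These 7 genes were chosen with results of these data known, so the counts are descriptions. Over the 10 probe sets the median change was 0.13 in RA and 0.31 in TSA.

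**Figure D1:**
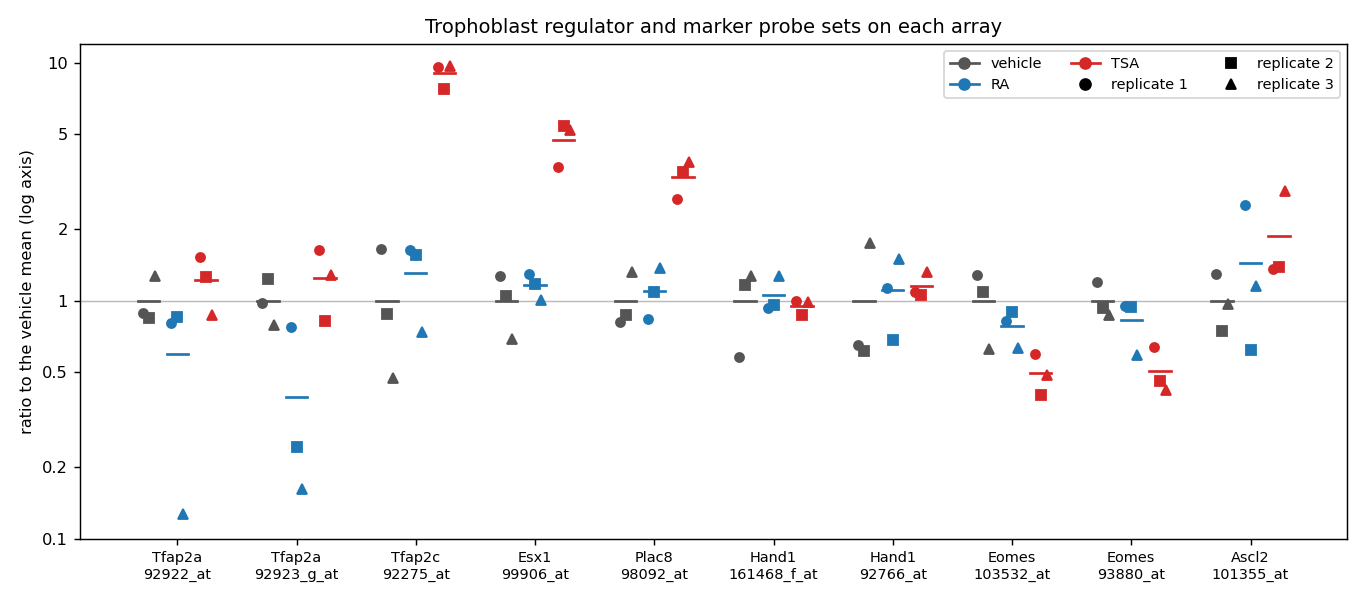
Ratio to the vehicle mean (log axis) of the 10 probe sets on each of the 9 arrays, with colour for the group, symbol shape for the replicate and a horizontal bar for the group mean. The TSA arrays of Tfap2c lie between 7.75 and 9.63 and those of Esx1 and Plac8 also lie above all other arrays, while both Eomes probe sets lie lower in TSA.

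Tfap2c, the AP-2 gamma factor of trophoblast stem cells, gave the largest change of the 10 probe sets. Its ratios were 1.65, 0.881 and 0.474 on vehicle replicates 1, 2 and 3, then 1.63, 1.55 and 0.739 in RA and 9.61, 7.75 and 9.63 in TSA. All TSA arrays were higher than every other array, the lowest of them by 4.71 times the highest of the other 6, while RA and vehicle overlapped. The mean rose from 1 ± 0.595 in vehicle to 9 ± 1.08 in TSA (SD, n = 3), a log2 change of 3.26 with a standard error of 0.45 and an adjusted p of 0.00853 (limma, Benjamini-Hochberg). In RA the mean was 1.31 ± 0.492 (SD, n = 3), and the log2 change of 0.45 (95% interval -0.57 to 1.47) did not pass. The difference between treatments, RA minus TSA, was -2.81 (adjusted p = 0.0136 by limma). Quantile normalisation ended both calls, with log2 changes of 2.54 (adjusted p = 0.154) in TSA and -2.01 (0.236) between treatments by the same test. Without TSA replicate 1 or TSA replicate 3 the call between treatments was also lost (adjusted p 0.0535 and 0.052, limma). Without vehicle replicate 3 the TSA change was 2.84, and the call held.

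Neither probe set of the related gene Tfap2a was called in any comparison. The 2 probe sets come from the same deposited sequence record, and the suffix of the second, 92923_g_at, marks probes common to a group of transcripts. Probe set 92922_at read 0.888, 0.841 and 1.27 in vehicle, 0.804, 0.853 and 0.127 in RA, and 1.53, 1.25 and 0.873 in TSA. Only RA replicate 3 was low there, at 0.0997 of the highest vehicle value, and the other RA arrays lay close to vehicle. Probe set 92923_g_at read 0.981, 1.23 and 0.79 in vehicle, 0.778, 0.241 and 0.162 in RA, and 1.62, 0.821 and 1.29 in TSA. Here all RA arrays were below all vehicle arrays, with RA replicates 2 and 3 far below and replicate 1 just below.

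Neither Tfap2a probe set passed in RA, with log2 changes of -1.01 (95% interval -2.34 to 0.33, adjusted p = 0.53) and -1.48 (-2.59 to -0.36, adjusted p = 0.239, limma). The first rested on RA replicate 3: without that array it was -0.235, and without vehicle replicate 3 too -0.057. This second one was the single member probe set with no overlap between RA and vehicle, which 17% of all probe sets showed. In TSA their changes were 0.26 and 0.27 (adjusted p 0.849 and 0.804, limma). Between treatments RA arrays were below all TSA arrays on both, by -1.27 and -1.75, and neither passed (adjusted p 0.317 and 0.0973, limma). Without RA replicate 1 the second passed, at -2.33 (adjusted p = 0.0236, limma). Tfap2b, the only other AP-2 gene with a probe set, had ratios of 0.258, 0.429 and 2.31 in vehicle, and its changes of 0.19 in RA and -0.68 in TSA did not pass (adjusted p 0.958 and 0.685, limma).

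Esx1, the X-linked homeobox gene of the placental labyrinth, read 1.26, 1.04 and 0.692 in vehicle, 1.3, 1.18 and 1.01 in RA, and 3.63, 5.39 and 5.22 in TSA. The TSA arrays stood apart from the other 6, the lowest at 2.8 times their highest value, and RA lay within or just above the vehicle range. The mean was 1.16 ± 0.145 in RA and 4.75 ± 0.973 in TSA (SD, n = 3). TSA raised it by 2.21 on the log2 scale, with a standard error of 0.27 (adjusted p = 0.00577, limma), a call that held in 20 of 21 alternatives and was lost without the 3 arrays high in 18S, at 2.11 (adjusted p = 0.0693, limma). RA changed it by 0.24 (95% interval -0.37 to 0.85), which did not pass. RA minus TSA was -1.97 (adjusted p = 0.00715), and after quantile normalisation -1.4 (adjusted p = 0.0548, both limma).

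Plac8 read 0.81, 0.866 and 1.32 in vehicle, 0.837, 1.08 and 1.38 in RA, and 2.66, 3.46 and 3.83 in TSA. RA and vehicle overlapped, and every TSA array was higher than both groups, the lowest by 1.93 times their highest value. Its TSA mean was 3.32 ± 0.598 and its RA mean 1.1 ± 0.27 (SD, n = 3). The log2 change in TSA was 1.7 with a standard error of 0.27 (adjusted p = 0.0156, limma), and in RA 0.13 (95% interval -0.49 to 0.76). The rise passed in 6 of 9 fits that each leave out an array, where those of Tfap2c and Esx1 passed in 9 of 9. Leaving out vehicle replicate 2, TSA replicate 2 or TSA replicate 3 gave adjusted p of 0.0657, 0.0778 and 0.0617 (limma). The 3 fits that leave out an RA array cannot move this change and alter only the shared spread. The losses all came from fits without a vehicle or TSA array. RA minus TSA was -1.56 (adjusted p = 0.0187, limma), a call that held in 16 of 21 alternatives and was lost without RA replicate 1, RA replicate 2, TSA replicate 2 or TSA replicate 3 (0.0689, 0.0688, 0.0796 and 0.0752, same test) and after quantile normalisation (0.0816).

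**Figure D2:**
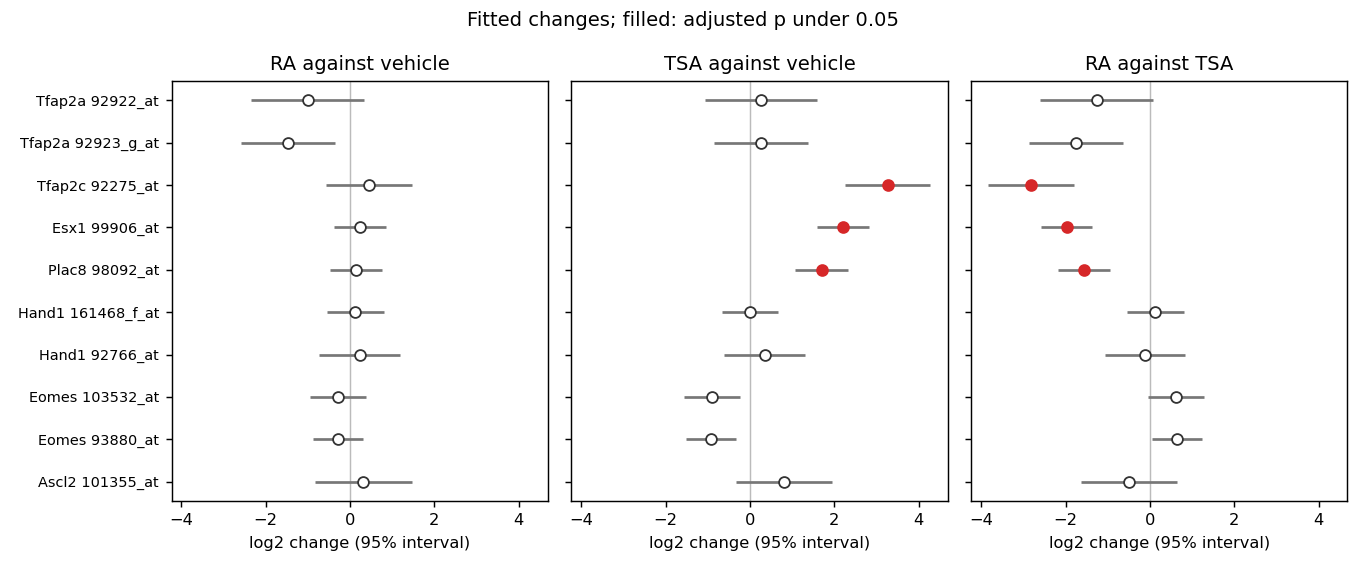
Log2 change of the 10 probe sets in the 3 comparisons, with points at the limma estimate, bars for the 95% interval and filled points for an adjusted p under 0.05. Tfap2c, Esx1 and Plac8 are filled in TSA against vehicle and in RA against TSA, and none is filled in RA against vehicle.

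Eomes, the T-box factor of trophoblast stem cells and of the primitive streak, was lower in TSA on both probe sets without passing the test. Probe set 103532_at read 1.28, 1.09 and 0.628 in vehicle, 0.821, 0.894 and 0.63 in RA, and 0.594, 0.402 and 0.488 in TSA. Probe set 93880_at read 1.2, 0.93 and 0.869 in vehicle, 0.95, 0.935 and 0.589 in RA, and 0.639, 0.459 and 0.422 in TSA. On both, the TSA arrays were below all vehicle arrays, with RA between or overlapping, and vehicle replicate 3 was the lowest vehicle array.

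The Eomes log2 changes in TSA were -0.91 and -0.92, with standard errors of 0.29 and 0.26 and adjusted p of 0.136 and 0.0946 (limma). Both probe sets, designed on different sequence records, gave like estimates, and of all probe sets 17.1% were lower in TSA with no overlap. Without vehicle replicate 3, probe set 103532_at passed at -1.19 (adjusted p = 0.0422, limma). In RA the changes were -0.29 and -0.28 (adjusted p 0.742 and 0.718, limma), and neither differed between treatments by the test, at 0.61 and 0.64 (0.331 and 0.25).

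The giant cell factor Hand1 passed the test in no comparison. Probe set 92766_at read 0.65, 0.613 and 1.74 in vehicle, 1.13, 0.685 and 1.5 in RA, and 1.09, 1.05 and 1.31 in TSA. The suffix of the other, 161468_f_at, marks probes similar to other sequences of a family; it read 0.579, 1.16 and 1.26 in vehicle, 0.932, 0.96 and 1.27 in RA, and 1.0, 0.872 and 0.984 in TSA. All groups overlapped on both, and the vehicle arrays were spread over 2.84 and 2.18 times. For 92766_at the log2 change was 0.23 in RA (95% interval -0.72 to 1.19) and 0.35 in TSA (-0.61 to 1.3), and for 161468_f_at 0.13 (-0.54 to 0.8) and 0.0014 (-0.67 to 0.67). Changes up to the ends of these intervals are not excluded.

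Ascl2, the spongiotrophoblast factor and an imprinted gene, scattered widely within both treated groups. It read 1.29, 0.743 and 0.965 in vehicle, 2.53, 0.622 and 1.15 in RA, and 1.35, 1.38 and 2.87 in TSA. All TSA arrays were above all vehicle arrays, replicates 1 and 2 only just, while RA replicate 1 was high and RA replicate 2 the lowest array of all. The TSA mean was 1.87 ± 0.871 (SD, n = 3), and the log2 change of 0.81 (95% interval -0.33 to 1.96) had an adjusted p of 0.42 (limma). In RA the change was 0.32 (-0.83 to 1.46), which turned to -0.19 without RA replicate 1.

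Other genes of the trophoblast were counted from lists. Of 24 further regulators of this lineage, 22 had probe sets (36 in all): in TSA none rose and 2 fell, 2 of 36 probe sets against 3.48% of all, and in RA none rose and 1 fell, 1 of 36 against 1.36%. The fallers were Lifr, a receptor subunit for leukaemia inhibitory factor, at -1.64 in TSA (adjusted p = 0.0113) and -1.42 in RA (0.0292), and Bhlhe40, a helix-loop-helix repressor, at -1.48 in TSA (0.0395), by limma. Only 1 of the Lifr probe sets passed, and the log2 changes of the other 4 in TSA, -0.51 to -1.2, did not. Cited2, a coactivator of AP-2 factors, was higher in RA than in TSA by 1.04 (adjusted p = 0.0427, limma), and Bhlhe40 likewise by 1.88 (0.0153). The median change over the 36 probe sets was -0.31 in RA and -0.06 in TSA.

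Of the listed regulators that did not pass, 5 are given first, named after their values were seen. Cdx2, the caudal factor that sets up the trophectoderm, changed by 0.22 in TSA and -0.49 in RA (adjusted p 0.872 and 0.79, limma). Elf5, which acts with Tfap2c and Eomes in stem cells, read 0.275, 0.305 and 2.42 in vehicle and 0.214 to 0.254 in TSA, so its vehicle mean rested on replicate 3. The 4 probe sets of Tead4, which acts upstream of Cdx2, changed by 0.23 to 0.95 in TSA and by -0.06 to -0.82 in RA, and none passed. Gata3 changed by -0.3 in TSA and Ets2 by -0.05 (adjusted p 0.854 and 0.945, limma). The largest rises in TSA that did not pass were of Snai1 (3.08), Socs3 (1.94 and 1.1 on its probe sets) and Cited1 (1.24). Elf5 (-1.23) and Esrrb (-0.93) were among those that went down without passing.

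Of 49 listed products of placental cells (hormones of the prolactin family, cathepsins, pregnancy-specific glycoproteins, imprinted growth genes and others), 26 genes had 35 probe sets. In TSA 2 genes rose, Phlda2 and Igf2, 2 of 35 probe sets against 2.21% of all called higher, and none fell, and in RA none was called. Phlda2, an imprinted gene that restrains placental growth, read 0.566, 1.46 and 0.97 in vehicle, 0.797, 0.581 and 1.09 in RA, and 3.4, 3.25 and 3.04 in TSA, a log2 change of 1.74 (adjusted p = 0.0337, limma). For Igf2, the imprinted growth factor, 1 probe set rose by 2.34 (adjusted p = 0.0341) while the other, at 0.85, did not pass (0.621, limma). Cyp11a1, which makes pregnenolone, was higher in RA than in TSA by 2.02 (adjusted p = 0.00436, limma). None of the measured prolactin family genes and pregnancy-specific glycoproteins passed in any comparison. Medians over the 35 probe sets were 0.002 in RA and -0.05 in TSA.

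**Figure D3:**
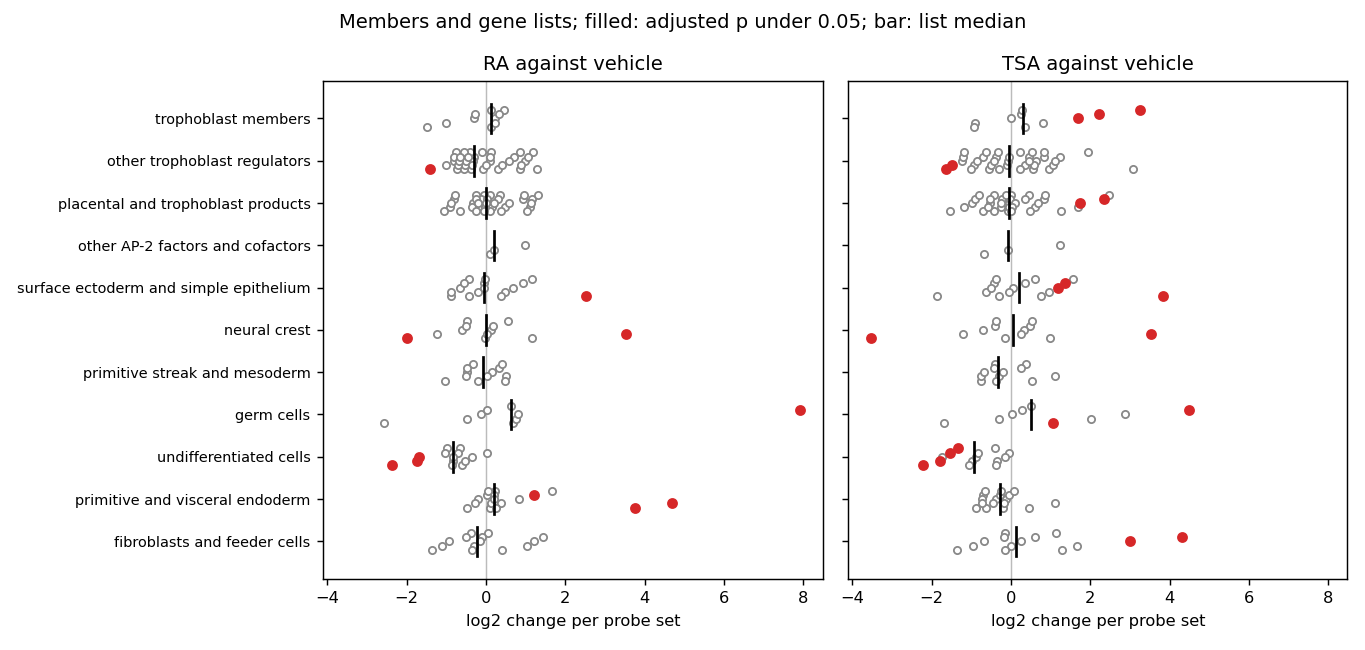
Log2 change of each probe set in RA and in TSA against vehicle, for the 10 member probe sets and for 10 gene lists, with filled points for an adjusted p under 0.05 and a bar at each median. Both comparisons share the vehicle arrays. Other trophoblast regulators have no filled point above 0 in either panel, and placental products have 2 in TSA.

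The members are also used outside the placenta, and markers of those cell types were counted beside them. Of 13 measured genes of surface ectoderm and simple epithelium, 3 rose in TSA, Krt19 (3.83), Perp (1.36) and Wnt6 (1.2), and 1 in RA, the desmosome gene Dsp (2.51). That is 3 of 16 probe sets in TSA, against 2.21% of all called higher, and the second probe sets of Krt19 (-0.44 in TSA) and Dsp (-0.06 in RA) did not pass. The mean log2 value of the 16 probe sets was -0.074 to -0.023 in vehicle, 0.029 to 0.161 in RA and 0.324 to 0.4 in TSA. Krt8 and Krt18, the keratins of trophectoderm and endoderm, did not pass in TSA (Krt8 0.76, adjusted p = 0.192; Krt18 0.97 and 0.05, adjusted p 0.0796 and 0.983, limma). Of 11 neural crest genes, with 12 probe sets, Msx2 rose and Foxd3 fell in both treatments, on 1 probe set each. Among 11 genes of primitive streak and mesoderm, with 12 probe sets, none was called in any comparison. Of 8 germ cell genes, a lineage that also uses Tfap2c, Stra8 and Ddx4 rose in TSA and Stra8 in RA, 2 and 1 of 9 probe sets. Over all probe sets, 3.48% were called changed in TSA and 1.36% in RA.

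Fibroblast markers were counted too: of 10 measured genes Col1a1 (4.31) and Thy1 (3.0) rose in TSA, 2 of 14 probe sets against 2.21% of all called higher, and a second Col1a1 probe set, at 0.59, did not pass (adjusted p = 0.455, limma). The mean over 14 probe sets was -0.673 to 0.635 in vehicle, -0.46 to -0.18 in RA and 0.236 to 0.582 in TSA. Vehicle replicate 3 gave the highest of these 9 means. The early endoderm list had 11 genes, of which Foxa1, Sox7 and Gata6 (1 of its 3 measured probe sets) rose in RA and none was called in TSA. That is 3 of 17 probe sets in RA, where 1.36% of all were called changed, against 3.48% in TSA. The part of any of these cell types in the rises of Tfap2c, Esx1 and Plac8 was not tested, and in bulk RNA more cells of a type and more RNA per cell cannot be told apart. Without vehicle replicate 3 and RA replicate 3, the 2 arrays with the most 18S signal, the TSA changes of Tfap2c, Esx1 and Plac8 were 2.84, 1.98 and 1.91, all past the test. Without vehicle replicate 1 as well, a refit chosen after seeing the data, they were 3.27, 2.11 and 1.86. That refit has 1 vehicle array, so its tests borrow the spread of the other groups. The vehicle group was the more spread 1: the median SD of log2 values over all probe sets was 0.413 in vehicle, 0.311 in RA and 0.26 in TSA. The main fit shares 1 estimate of spread per probe set over the 3 groups.

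The probe sets nearest in pattern were those with the smallest root mean square difference in log2 value over the 9 arrays. For Tfap2c they were Hspa1b (0.457), 6330403K07Rik (0.496) and Csrp1 (0.519), for Esx1 Id3 (0.322), Cd74 (0.344) and Txnip (0.347), and for Plac8 Dlx4 (0.222), Ephx2 (0.288) and Crybg1 (0.322). All 9 rose in TSA and none was called in RA, with TSA changes from 1.58 for Ephx2 to 3.15 for Csrp1. Other probe sets of these genes were not all alike in TSA. A second one of Csrp1 also rose, by 2.68 (adjusted p = 0.00209), while a second one of Txnip changed by -0.18 (0.746, both limma). Of 6330403K07Rik, 1 other changed by 2.42 without passing (adjusted p = 0.0684), and another fell by 2.72 on the log2 scale (0.0139, both limma). Dlx4, a distal-less homeobox gene, read 0.795, 0.763 and 1.44 in vehicle, 1.02, 1.04 and 1.53 in RA, and 3.39, 4.66 and 3.7 in TSA, replicate 3 being highest in vehicle and RA as it was for Plac8. This likeness was the measure that chose them, and the 9 arrays share the 3 groups.

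**Figure D4:**
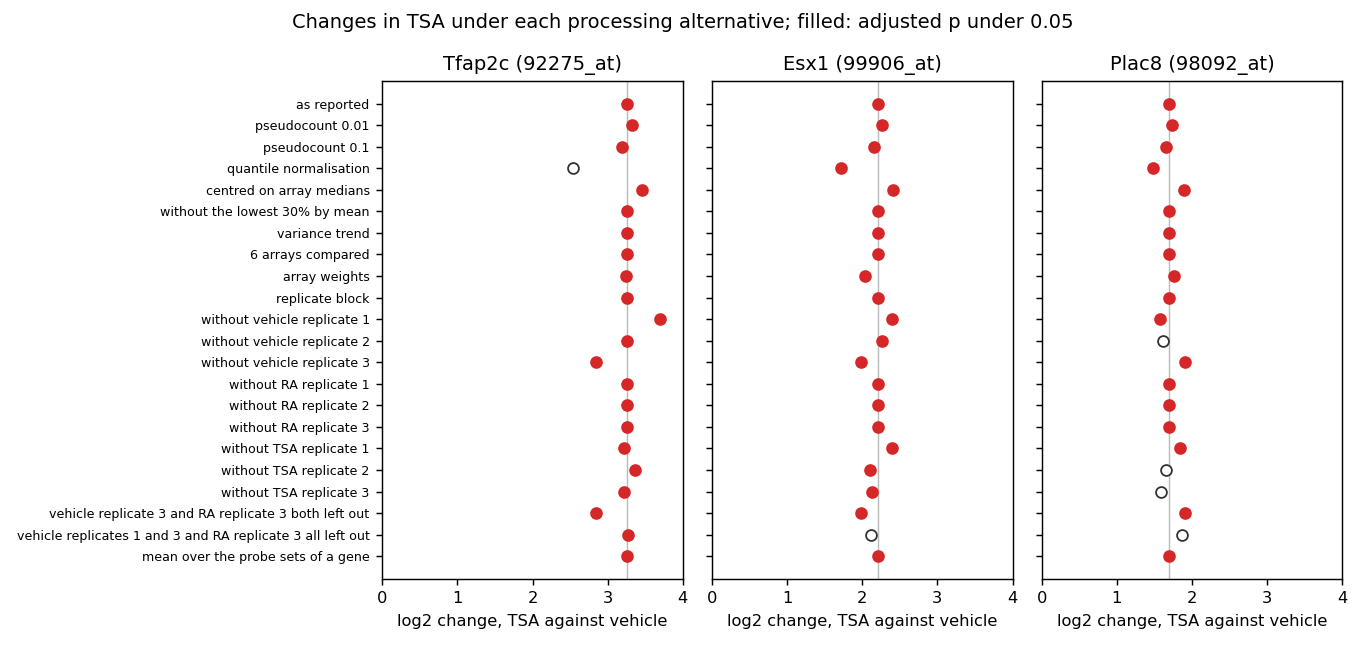
Log2 change in TSA against vehicle of the probe sets of Tfap2c, Esx1 and Plac8 as reported (grey line) and under 21 other ways of processing, with filled points for an adjusted p under 0.05. All points lie above 0; Tfap2c is open after quantile normalisation, Plac8 in 3 settings that leave out 1 array, and Esx1 and Plac8 without the 3 arrays high in 18S.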

How the data were processed

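Affymetrix oligonucleotide arrays were hybridised at a core facility and, per the labels, the vehicle data were entered into GeneSpring; other steps before deposit were not stated in those labels. The values the authors deposited are linear ratios: in all 12488 probe sets the vehicle arrays average 1 within 2e-07. Array medians ran from 0.821 to 1.02, so ratios were not rescaled. The 66 control probe sets were left out. Of the 12422 others, 10833 had 1 gene symbol in the platform annotation, 396 several and 1193 none; symbols were updated through Entrez IDs with RefSeq GRCm38.p6 (16 IDs were outside it).

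Log2(ratio + 0.05) was fitted with limma 3.58.1 (R 4.3.3) over 9 arrays, with 6 residual degrees of freedom, and p-values were adjusted over all probe sets (Benjamini-Hochberg). The fit was tested on simulated data. Fold changes on this scale understate changes of low values, and the number of arrays limits precision. The pseudocount, scaling, filter, trend, weights, block, probe set summary and left-out arrays were varied. Genes named were all members, list genes called in any comparison, and the 3 nearest patterns of each called member. Others (Tfap2b, Cdx2, Elf5, Tead4, Gata3, Ets2, Snai1, Socs3, Cited1, Esrrb, Krt8, Krt18, Pou5f1, Nanog, Sox2) were named after their values were seen. So were the neighbouring genes Ptpn13, Tgfbr2, Nrk, Bmp7 and Rtf2. Members and lists were chosen with earlier results of these data known.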

Additional observations from a re-analysis of the deposited data

How the results depend on the processing

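Among 30 log2 changes (10 probe sets in 3 comparisons), the 6 called ones kept their direction in all 126 refits and passed in 111. Several of these refits cannot move an estimate, so direction was fixed there. They are the filter, the variance trend, the replicate block, the 6 arrays compared and leaving out an array of the group not compared. The gene mean also could not, since each called gene has 1 probe set. Of 624 refits in all, 21 turned direction, none of a called value. Many came from leaving out 1 array. Over those fits, the RA change ran from -0.205 to 0.326 for Hand1 161468_f_at, -0.021 to 0.695 for Hand1 92766_at, -0.189 to 0.78 for Ascl2 and -0.035 to 0.345 for Plac8, turning without vehicle replicate 1 or RA replicate 3, without vehicle replicate 2 or RA replicate 3, without RA replicate 1, and without RA replicate 3. In TSA, Hand1 161468_f_at ran from -0.333 to 0.198, below 0 without vehicle replicate 1, TSA replicate 1 or TSA replicate 3. Between treatments it ran from -0.007 to 0.205 (turned without RA replicate 3), and Hand1 92766_at from -0.363 to 0.175 (without RA replicate 2). Other settings turned Hand1 161468_f_at to -0.071 in RA and -0.141 in TSA (array weights), -0.002 in TSA (pseudocount 0.1) and -0.007 between treatments (without vehicle replicate 3 and RA replicate 3), and Hand1 92766_at to 0.005 between treatments (gene mean). Without all 3 arrays high in 18S, added after seeing the data, Hand1 161468_f_at was -0.28 in RA, -0.273 in TSA and -0.007 between treatments, Eomes 93880_at 0.018 in RA and Tfap2a 92923_g_at -0.035 in TSA; this fit, with 1 vehicle array, called 2 probe sets in RA, 40 in TSA (1 member) and 297 between treatments.

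Counts of all probe sets called were 169 in RA, 432 in TSA and 486 between treatments. They were 87, 108 and 152 after quantile normalisation and 549, 1771 and 890 with array weights estimated gene by gene (limma's default estimate did not converge); 111 in RA with the variance trend, 98 in RA without vehicle replicate 3 and RA replicate 3, and 61 in RA and 168 in TSA from the 6 arrays compared. Of the calls, 116 were higher and 53 lower in RA and 274 and 158 in TSA; after centring these were 148 and 37, and 379 and 82, and after quantile normalisation 74 and 13, and 84 and 24. The balance also moved with the variance trend (98 and 13, and 266 and 86) and the 6 arrays compared (49 and 12, and 128 and 40). With array weights, lower calls outnumbered higher ones (264 and 285, and 737 and 1034). The filter that drops the lowest 30% by mean ratio gave 120 and 7, and 280 and 9. Vehicle averages 1 by construction, so that filter drops mainly probe sets that fell in treatment, and fewer lower calls were built in. Leaving out each array gave 54 to 209 in RA, 107 to 494 in TSA and 167 to 624 between treatments, and for members 0 to 0, 2 to 4 and 1 to 3. Quantile normalisation left none of the 3 members called between treatments, and array weights called 5 in TSA, adding both Eomes probe sets. The cause was not tested. The replicate numbers of the titles were not taken as pairs, since not every same-numbered pair had deviations correlated above 0.1 (4 of 9 did). The replicate 3 arrays did deviate together (0.19 to 0.289), as did vehicle and RA replicate 1 (0.249), the other 5 pairs lay from -0.0317 to 0.0719, and 6 of 9 arrays correlated best with their own number, a hint from the data and not from the design; with the replicate block the counts were 141, 438 and 455, and for members 0, 3 and 3. The filter on mean ratio removed both Eomes probe sets, which were lower in TSA. Brightness is not in the ratios, so signal over background is unknown.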

Other observations

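The genes next to the members in the RefSeq order were looked at after the members' values were seen, taking the 2 nearest measured genes on each side, 28 genes in all. In TSA 1 of these rose and 1 fell, each on 1 of the 36 probe sets, where 3.48% of all probe sets were called changed. None was called in RA, against 1.36% of all. Distances in bases were not taken into account. Ptpn13, a tyrosine phosphatase 2 places from Plac8 among measured genes, rose by 2.45 in TSA (adjusted p = 0.00257, limma). Tgfbr2, a TGF-beta receptor 2 places from Eomes, fell by 2.06 on the log2 scale (adjusted p = 0.0304, limma). Nrk, a placental kinase gene and the next measured gene after Esx1 on the X chromosome, changed by 1.7 and 0.83 on its probe sets. It did not pass (adjusted p 0.137 and 0.404, limma). The measured neighbours of Tfap2c, among them Bmp7 (0.013) and Rtf2 (0.076), did not pass in TSA.

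Among the other trophoblast genes, Snai1, a zinc finger repressor, read 3.9, 6.28 and 6.53 in TSA and 0.298, 0.266 and 2.44 in vehicle, and its change of 3.08 did not pass (adjusted p = 0.0825, limma). Vehicle replicate 3 was the highest vehicle array in 36 of the 71 probe sets of the regulators and placental products (50.7%), against 39% of all probe sets, and exceeded 2 in 7.04% against 2.92%.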
